A study of Mus musculus with 6 samples.

Results

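The Slc25a genes encode the mitochondrial carrier family, the proteins that move nucleotides, phosphate, organic acids, amino acids, acylcarnitines and cofactors across the inner mitochondrial membrane. Their levels were read from RNA sequencing of 3T3-L1 adipocytes with and without knockdown of RBMS1, an RNA-binding protein. All genes of the deposited table named Slc25a followed by a number were taken, which gave 47 of 45706 genes. Of these 47 carriers, 40 had a count in at least 1 sample, 37 were among the 11440 genes kept for testing after low counts were filtered out, and 7 (Slc25a18, Slc25a21, Slc25a31, Slc25a41, Slc25a43, Slc25a48 and Slc25a54) had no count in any sample. The remaining 3, Slc25a2, Slc25a27 and Slc25a47, had totals of 16, 71 and 37 counts over the 6 samples and were not tested.

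3T3-L1 is a mouse embryonic fibroblast line that turns into lipid-storing adipocytes when given a hormone cocktail. The scrambled control group (3 samples) carried a scrambled shRNA, and the RBMS1 knockdown group (3 samples) carried an shRNA against Rbms1. In both groups the shRNA was delivered with a lentivirus and the transduced cells were selected with puromycin. All cells were differentiated with IBMX, insulin, dexamethasone and rosiglitazone and were harvested on day 7. The study's methods call the 3 samples of a group biological replicates. Neither they nor the labels say whether these came from separate transductions, and the p-values measure the spread between these samples.

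Carriers share a common architecture, a repeated module of membrane helices around a central substrate site, and many are made as close paralogs with the same substrate. In an adipocyte the ADP/ATP carriers and the phosphate carrier serve oxidative phosphorylation, the citrate carrier exports the carbon used for fatty acid synthesis, and the carnitine/acylcarnitine carrier brings fatty acyl groups in for oxidation. The carriers are encoded in the nucleus and are imported into the inner membrane after translation.

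Several of the results turn on paralogs whose messages differ at many scattered bases. For 2 pairs, 120 coding bases around the longest shared stretch are given to show where a read can tell the members apart. The sequences are from GENCODE transcripts on GRCm38, 5′ to 3′ on the coding strand, with the bases that differ between the members of a pair in capitals. The ADP/ATP carriers Slc25a4 (chr8:46209229-46209348, minus strand) and Slc25a5 (chrX:36797003-36797122, plus strand) differed at 25 of these bases. The aspartate/glutamate carriers Slc25a12 (chr2:71293673-71296732, minus strand) and Slc25a13 (chr6:6096671-6109248, minus strand) differed at 23 of them, and each of these stretches spanned 2 exons.
Slc25a4: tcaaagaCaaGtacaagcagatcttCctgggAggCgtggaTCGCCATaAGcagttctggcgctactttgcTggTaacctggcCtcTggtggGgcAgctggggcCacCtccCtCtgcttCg
Slc25a5: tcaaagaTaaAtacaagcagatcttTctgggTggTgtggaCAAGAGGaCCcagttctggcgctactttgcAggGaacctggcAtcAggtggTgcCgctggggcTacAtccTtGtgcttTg
Slc25a12: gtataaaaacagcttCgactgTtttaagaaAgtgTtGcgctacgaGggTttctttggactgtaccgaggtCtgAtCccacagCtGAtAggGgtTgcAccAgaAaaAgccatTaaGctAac
Slc25a13: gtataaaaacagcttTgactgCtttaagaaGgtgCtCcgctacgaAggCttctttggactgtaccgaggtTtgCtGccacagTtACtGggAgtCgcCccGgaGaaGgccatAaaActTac
Over the whole coding sequence, Slc25a4 and Slc25a5 were 77.5% identical and shared no run longer than 20 bases. Slc25a12 and Slc25a13 were 70.7% identical with a longest shared run of 21 bases, and Slc25a23 and Slc25a25 were 62.6% identical with a longest shared run of 23 bases. Of all 47 carriers, 23 had no word of 31 bases in common with the transcripts of any other gene, including Slc25a1, Slc25a4, Slc25a11, Slc25a25, Slc25a39 and Slc25a44. Over 1% of the words were shared in 11 carriers, among them Slc25a20 (8.83%), Slc25a36 (7.78%), Slc25a37 (7.72%) and Slc25a23 (4.41%). Slc25a5 was the carrier with over 10% of its words shared (49.4%, with 13 other genes). Of these 13 genes 11 were in the table, and their summed level was between 0.119 and 1.54 CPM in a sample.

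Total counts were between 3142699 and 11073111 per sample, so that 3 counts, the limit that a count of 0 allows, lay between 0.220 and 1.49 CPM (counting error only). CPM here are counts scaled to the TMM-adjusted library size. Rbms1 itself was at 113, 102 and 99.6 CPM in the scrambled control samples and at 49.2, 61.4 and 84.0 CPM in the RBMS1 knockdown samples, with no overlap. The log2 fold change was -0.69, with an adjusted p of 0.185. Every adjusted p comes from the quasi-likelihood F test of edgeR over all tested genes (Benjamini-Hochberg) unless DESeq2 is named. Scrambled control replicate 2, the shallowest library, had 43.0% of its counts in genes derived from ribosomal RNA, and the other libraries had 8.12% to 17.8%. All 12 adipocyte markers were detected, with summed levels between 24288 and 27259 CPM in the control samples, and of the 6 macrophage markers Adgre1 and Ptprc had no count and the sum was at most 3.39 CPM in a sample.

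Fold changes of the carriers were spread evenly around 0, and edgeR called none of them. By this test, not 1 of the 37 tested carriers reached the threshold (adjusted p of 0.1), which 1.22% of all tested genes (140 of 11440) did. An unadjusted p under 0.05 was found for 8 of the 37, and for 12.4% of all tested genes. DESeq2, applied to the same counts, called 2 carriers, Slc25a4 (adjusted p = 0.0231 by DESeq2) and Slc25a23 (adjusted p = 0.0961 by DESeq2), with 3.2% of its tested genes called. The median log2 fold change of the 37 was 0.0073, beside 0.0044 over all tested genes, with 18 carriers below 0 and 19 above (49.6% of all tested genes were below 0). Directions are relative to the TMM scaling. With library sizes alone the median of all tested genes was 0.37 and that of the carriers was 0.35, -0.026 relative to all genes. That scaling moves genes up together, so a list's count below 0 with library sizes alone is given beside its median relative to all genes. The extremes with TMM were Slc25a23 at -1.32 and Slc25a13 at 1.25. A total of 19 carriers lay between -0.25 and 0.25, and for 23 the whole 95% interval lay within a log2 fold change of 1 in either direction. For the rest the interval reached a larger difference, which could not be told at this depth and spread.

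In 9 of the 37 carriers (24.3%) the groups did not overlap, against 18.5% of all tested genes. The 5 with lower knockdown samples were Slc25a3, Slc25a4, Slc25a23, Slc25a25 and Slc25a29, and 4 of these belong to the phosphate and adenine nucleotide carriers (background for lower knockdown samples 9.55%). Slc25a4 lies on chromosome 8, where 240 of 624 tested genes had all knockdown samples below the controls. The 4 with higher knockdown samples were Slc25a13, Slc25a14, Slc25a45 and Slc25a53 (background 8.96%). An exact permutation test of 3 against 3 samples reaches no p smaller than 0.1, so only the model's p-values are given.

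**Figure D1:**
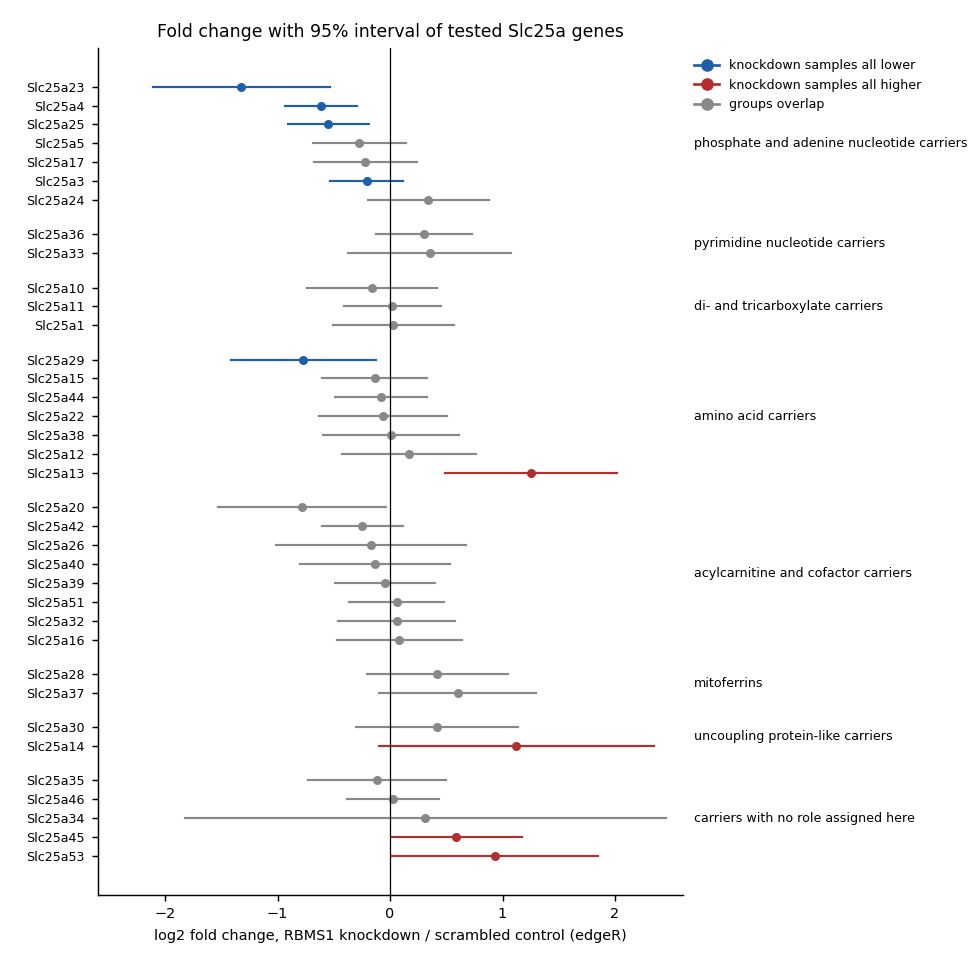
Log2 fold change (RBMS1 knockdown over scrambled control, x axis) of 36 tested Slc25a genes, grouped by role, as points with 95% intervals from edgeR (n = 3 per group). Blue and red mark the 5 and 4 genes whose knockdown samples all lay below or above the controls. The intervals of the blue Slc25a3 and the red Slc25a14 cross 0, as do most of the grey ones.

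Levels within the family differed widely when divided by exon length. The 5 highest carriers per kilobase of exon were Slc25a5, Slc25a1, Slc25a10, Slc25a4 and Slc25a39, an ADP/ATP carrier, the citrate carrier, the dicarboxylate carrier, another ADP/ATP carrier and a mitochondrial glutathione carrier. Their mean levels in the control group were 250.3, 197, 119, 92.7 and 54.7 CPM per kilobase. In the knockdown group they were 207, 201, 106, 60.7 and 53.1 CPM per kilobase. At the low end of the tested carriers, Slc25a53 was at 0.265 and Slc25a14 at 0.486 CPM per kilobase in the controls. The levels of the 47 carriers summed to 2799, 2595 and 2723 CPM in the control samples and to 3100, 2044 and 2306 CPM in the knockdown samples, so the sums of the groups overlapped.

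**Figure D2:**
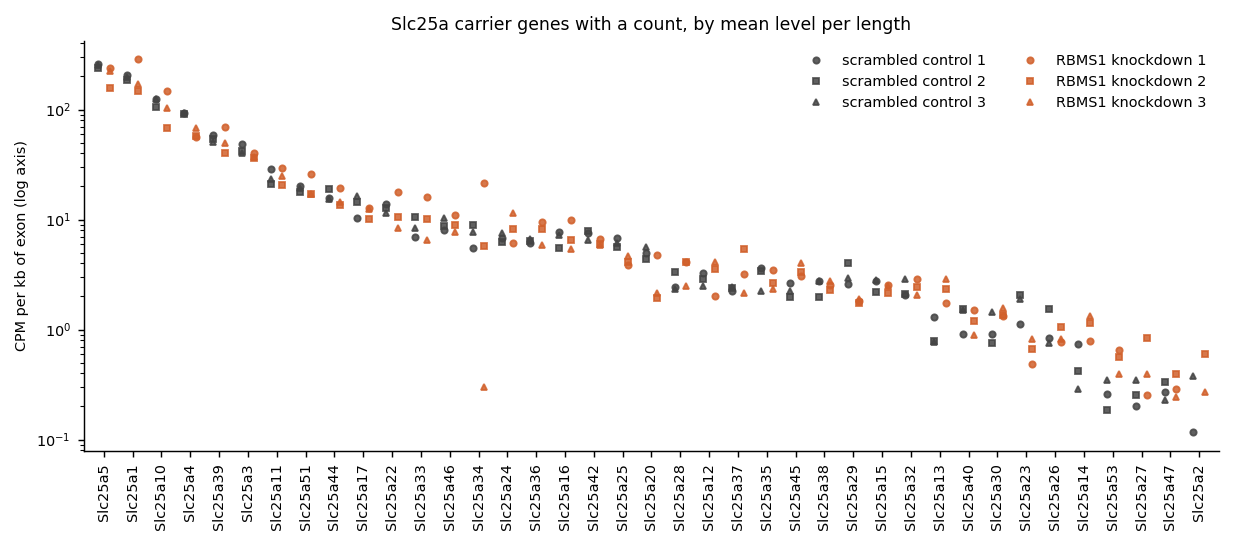
Level of 39 detected Slc25a genes in each sample (y axis, CPM per kilobase of exon, log scale; a sample at 0 is not drawn), ordered by mean level, with scrambled control in grey and RBMS1 knockdown in orange and a marker shape per replicate. Slc25a5, Slc25a1 and Slc25a10 lie at the top, and the 3 knockdown samples of Slc25a34 lie far apart.

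Among the phosphate and adenine nucleotide carriers, the phosphate carrier and the ADP/ATP carriers supply the mitochondrial matrix with phosphate and ADP and release ATP. Of the 10 on the list 7 were tested, 6 of them were below 0 (3 with library sizes alone, where Slc25a3, Slc25a5 and Slc25a17 were above 0 and the relative median was -0.27) with a group median log2 fold change of -0.27, and none passed an adjusted p of 0.1 by edgeR (background 1.22%). Slc25a4 (ENSMUSG00000031633, chr8:46206797-46211284), the ADP/ATP carrier typical of muscle and heart, was at 219, 214 and 221 CPM in the control samples and at 133, 135 and 159.7 CPM in the knockdown samples. The knockdown samples were all lower than the controls and the controls lay close together (218 ± 3.74 against 143 ± 14.8 CPM, SD, n = 3). The log2 fold change of Slc25a4 was -0.61 (standard error (SE) 0.14, 95% interval -0.93 to -0.29, adjusted p = 0.115), the smallest p of the family.

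Slc25a4 lies on chromosome 8, where the tested genes were shifted together. The median log2 fold change of the 624 tested genes of chromosome 8 was -0.38 and 90.1% of them were below 0, against 0.021 and 47.3% for 10778 genes on the other chromosomes. With the median of each chromosome removed from each sample, Slc25a4 had a log2 fold change of -0.22 (adjusted p = 0.659 by edgeR), closer to 0 than before. Slc25a42 and Slc25a15, the other tested carriers on chromosome 8, had log2 fold changes of -0.24 and -0.14, which became 0.15 and 0.25 after the same step. Chromosome 3 was shifted as well, with 387 of 584 tested genes below 0 and a median log2 fold change of -0.13. Slc25a24 and Slc25a44 lie there, and the same step moved them from 0.34 to 0.49 and from -0.080 to 0.067. What shifted these chromosomes was not tested.

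**Figure D3:**
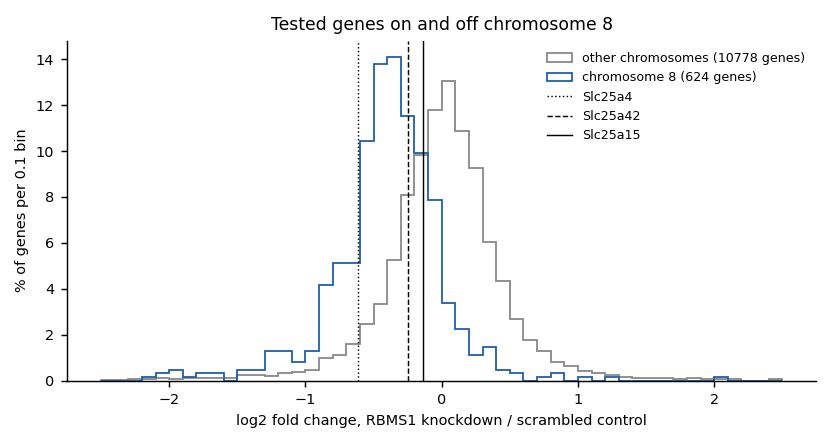
Distribution of log2 fold changes (x axis, bins of 0.1; y axis, percent of genes) of 624 tested genes on chromosome 8 (blue) and 10778 on other chromosomes (grey). Lines mark Slc25a4 at -0.61, Slc25a42 at -0.24 and Slc25a15 at -0.14, and the chromosome 8 curve sits to the left of the other.

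Slc25a5 (chrX:36795651-36798807), the ADP/ATP carrier of most proliferating cells, was at 428, 391 and 417 CPM in the control samples and at 395, 261 and 368 CPM in the knockdown samples. Replicate 2 of the knockdown was the lowest and replicate 1 lay within the controls (log2 fold change -0.27, SE 0.18, adjusted p = 0.592). Without knockdown replicate 2 the log2 fold change of Slc25a5 was -0.098. Slc25a3, the phosphate carrier, was at 268, 232 and 224 CPM against 222, 199.7 and 205 CPM. The knockdown samples lay just below the controls, with a log2 fold change of -0.21 (SE 0.15, adjusted p = 0.608). With each sample left out, the log2 fold change of Slc25a3 ranged from -0.26 to -0.12.

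The calcium-regulated ATP-Mg/phosphate carriers, which load the matrix with adenine nucleotides, differed among themselves. Slc25a23 (chr17:57043711-57059863) was at 5.93, 10.9 and 9.98 CPM in the control samples and at 2.59, 3.51 and 4.33 CPM in the knockdown samples, the lowest fold change of the tested carriers. All knockdown samples were lower (log2 fold change -1.32, SE 0.35, 95% interval -2.11 to -0.53, adjusted p = 0.153). Slc25a25 (chr2:32414487-32451445) was at 53.4, 44.7 and 47.7 CPM against 30.3, 32.6 and 36.7 CPM. Here too every knockdown sample lay below every control, with a log2 fold change of -0.55 (SE 0.16, adjusted p = 0.188). Slc25a24 was at 23.1, 21.3 and 25.8 CPM against 21.0, 28.4 and 39.6 CPM, with overlap and a log2 fold change of 0.34 (adjusted p = 0.608), which was 0.079 without knockdown replicate 3. Of the tested carriers 10 share exon bases with a gene on the opposite strand. Slc25a25 shares 379 exon bases with Naif1, whose level was 10.7 CPM in the controls and 11.5 CPM in the knockdown, and the strand setting of the counting is not given in the sources used here.

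Within-paralog shares, chosen after the values were seen and therefore given with no test, do not depend on the scaling of the libraries. Slc25a23 made up 7.20%, 14.2% and 12.0% of the summed counts of Slc25a23, Slc25a24 and Slc25a25 in the control samples and 4.80%, 5.43% and 5.37% in the knockdown samples. The knockdown shares lay close together and below every control. Slc25a4 made up 33.9%, 35.4% and 34.7% of the counts of the Slc25a4 and Slc25a5 pair in the controls and 25.3%, 34.1% and 30.3% in the knockdown, where replicate 2 lay just above the lowest control.

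The di- and tricarboxylate carriers link the tricarboxylic acid cycle to cytosolic lipid synthesis and redox shuttles. None of the 3 tested members passed the threshold and their samples overlapped. Slc25a1, the citrate carrier, was at 448, 405 and 428 CPM in the controls and at 619, 321 and 368 CPM in the knockdown. Knockdown replicate 1 was the highest of the 6 samples and replicates 2 and 3 were the lowest, so the log2 fold change of 0.030 (SE 0.24, adjusted p = 0.973) averaged samples on both sides of the controls. Slc25a10, the dicarboxylate carrier, had the same order, with 432, 365 and 434 CPM against 513, 234 and 355 CPM (log2 fold change -0.16, adjusted p = 0.851). Slc25a11, the oxoglutarate/malate carrier, was at 61.6, 44.2 and 49.7 CPM against 62.4, 43.3 and 52.3 CPM. The groups of Slc25a11 overlapped over most of their range (log2 fold change 0.019, 95% interval -0.41 to 0.45, adjusted p = 0.979).

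Among the amino acid carriers, 7 were tested, 4 were below 0 (1 with library sizes alone, Slc25a29, relative median -0.052) and 3 above, and the group median log2 fold change was -0.063. Slc25a13 (ENSMUSG00000015112, chr6:6041218-6217173), the aspartate/glutamate carrier called citrin that works in the malate-aspartate shuttle, was at 4.97, 2.98 and 2.92 CPM in the controls and at 6.61, 8.88 and 11.0 CPM in the knockdown. All knockdown samples were higher (log2 fold change 1.25, SE 0.34, 95% interval 0.49 to 2.02, adjusted p = 0.159), the highest fold change of the tested carriers. With the median of each chromosome removed from each sample, the log2 fold change of Slc25a13 was 1.07 (adjusted p = 0.303 by edgeR). Its paralog Slc25a12 was at 23.9, 21.3 and 18.4 CPM against 15.0, 26.2 and 30.3 CPM, with overlap (log2 fold change 0.17, adjusted p = 0.846). Its log2 fold change was 0.42 without knockdown replicate 1 and -0.039 without replicate 3. The share of Slc25a13 in the counts of this pair was 17.2%, 12.2% and 13.7% in the controls and 30.7%, 25.3% and 26.6% in the knockdown samples, with no overlap.

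Slc25a29, a carrier of basic amino acids, was at 6.73, 10.4 and 7.74 CPM in the controls and at 4.74, 4.56 and 4.99 CPM in the knockdown. The knockdown samples were all lower and nearly equal (log2 fold change -0.77, SE 0.29, adjusted p = 0.311). Slc25a44, which carries branched-chain amino acids, was at 55.8, 68.0 and 55.1 CPM against 69.0, 48.5 and 51.5 CPM, with overlap (log2 fold change -0.080, 95% interval -0.49 to 0.33, adjusted p = 0.902).

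**Figure D4:**
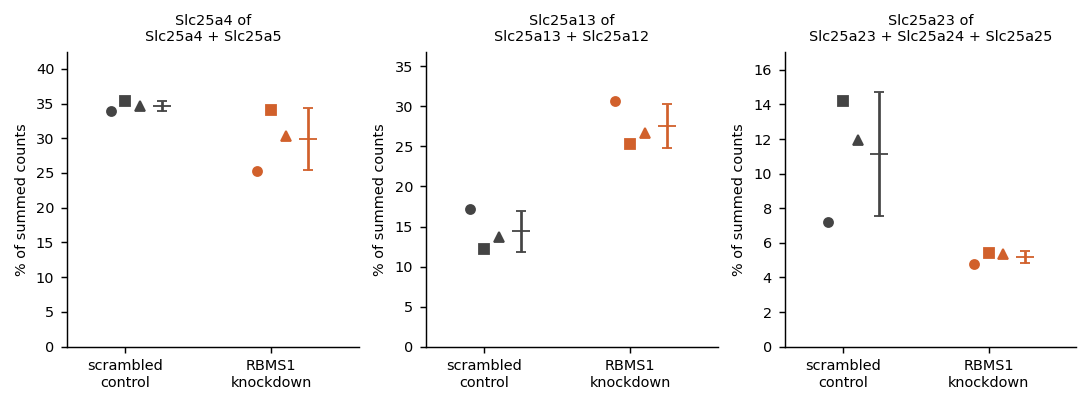
Share of 1 paralog in the summed counts of its paralogs (y axis, percent) in each scrambled control (grey) and RBMS1 knockdown (orange) sample, with mean and SD (n = 3 per group) beside the points and a marker shape per replicate. The groups are apart for Slc25a13 (12.2% to 17.2% against 25.3% to 30.7%) and for Slc25a23, and overlap for Slc25a4.

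The acylcarnitine and cofactor carriers bring fatty acyl groups, coenzyme A, NAD, folate and glutathione into the matrix. All 9 in the table were tested, 6 were below 0 (2 with library sizes alone, relative median -0.11), the group median log2 fold change was -0.13 and the samples of each of the 9 overlapped. Slc25a20, the carnitine/acylcarnitine carrier of fatty acid oxidation, was at 24.0, 21.3 and 27.4 CPM in the controls and at 23.0, 9.35 and 10.4 CPM in the knockdown. Knockdown replicate 1 stayed in the control range while replicates 2 and 3 were below it (log2 fold change -0.78, SE 0.33, adjusted p = 0.383). Without knockdown replicate 1 the log2 fold change of Slc25a20 was -1.29 (adjusted p = 0.0186 by edgeR), without replicate 2 it was -0.54 (adjusted p = 0.689), and without replicate 3 it was -0.59 (adjusted p = 0.576).

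Slc25a39, a glutathione carrier, was at 163, 149 and 139.9 CPM against 189.6, 112 and 137 CPM, again with knockdown replicate 1 highest (log2 fold change -0.045, adjusted p = 0.953). Slc25a42, a coenzyme A carrier on chromosome 8, was at 45.7, 47.1 and 38.7 CPM against 40.1, 35.7 and 35.2 CPM (adjusted p = 0.576). Replicate 1 of the knockdown lay above the lowest control in Slc25a42 as well.

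The mitoferrins, which import iron, were both above 0. Slc25a37 was at 13.5, 14.3 and 14.8 CPM in the controls and at 19.3, 32.5 and 13.1 CPM in the knockdown, where replicate 3 was the lowest of all 6 samples (log2 fold change 0.60, SE 0.31, adjusted p = 0.476). Without knockdown replicate 2, the highest sample, the log2 fold change of Slc25a37 was 0.20. Its paralog Slc25a28 had a log2 fold change of 0.42 (adjusted p = 0.58) and also overlapped. The pyrimidine nucleotide carriers Slc25a33 and Slc25a36 had log2 fold changes of 0.35 and 0.30, both with overlap. Without knockdown replicate 1 these were -0.025 and 0.14.

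The other carriers with higher knockdown samples were of low level. Slc25a14, related to the uncoupling proteins, was at 1.76, 0.993 and 0.688 CPM in the controls and at 1.87, 2.69 and 3.16 CPM in the knockdown (log2 fold change 1.12, SE 0.54, adjusted p = 0.445). It was 1.72 without control replicate 1 and 0.80 without control replicate 3. Slc25a53, with no role assigned here, was at 2.08, 1.49 and 2.75 CPM against 5.18, 4.44 and 3.16 CPM (log2 fold change 0.93, SE 0.41, adjusted p = 0.393). Control replicate 2 of both genes stood at or under the 1.49 CPM that 3 counts give in that library. Slc25a45, also with no role assigned, was at 7.37, 5.46 and 6.19 CPM against 8.48, 9.23 and 11.2 CPM, with a log2 fold change of 0.59 (SE 0.26, adjusted p = 0.393).

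RBMS1 knockdown replicate 1 stood apart from replicates 2 and 3 across the carriers. It lay above both of them in 23 of the 37 (62.2%), against 37.3% of all tested genes, and below both in 10 (27.0%, against 37.7%). It was the highest of the 6 samples for 15 carriers (40.5%, against 19.4% of all tested genes). The knockdown samples of Slc25a34 were far apart for their level, at 57.2, 15.3 and 0.807 CPM in the knockdown samples and 14.6, 23.8 and 20.6 CPM in the controls (log2 fold change 0.31, and -1.30 without replicate 1). With replicate 1 left out, edgeR called 4 carriers, among them Slc25a4, Slc25a13 and Slc25a20 (background 5.94%), with Slc25a4 at an adjusted p of 0.0802 and Slc25a13 at 0.0628, and the family median log2 fold change was -0.19.

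Markers of the differentiation state moved with these samples. The summed level of the 12 adipocyte markers was 23156 CPM in knockdown replicate 1 and 12935 and 15590 CPM in replicates 2 and 3. The summed level of the 10 fibroblast and preadipocyte markers was 8261 CPM in replicate 1 and 16905 and 17067 CPM in replicates 2 and 3, against 12448 to 14819 CPM in the controls. These sums are carried by a few abundant genes. Lpl, lipoprotein lipase, alone was at 10210 CPM in knockdown replicate 1 and at 5350 and 5595 CPM in replicates 2 and 3, against 11958 to 14512 CPM in the controls (log2 fold change -0.87, adjusted p = 0.446, and 0.0323 by DESeq2), while Fabp4, a fatty acid binding protein, was at 2527, 2127 and 2459 CPM in the same 3 samples. Of the adipocyte markers 11 of 12 were below 0 (8 with library sizes alone, relative median -0.40) with a median log2 fold change of -0.42, and Retn, the adipokine resistin, fell (log2 fold change -1.67, adjusted p = 0.0967). The knockdown samples were also all lower for Cebpa and Pnpla2, at log2 fold changes of -0.61 for Cebpa (adjusted p = 0.319) and -0.59 for Pnpla2 (adjusted p = 0.37). Cd36, a fatty acid uptake receptor, was the marker above 0 and was higher in every knockdown sample (log2 fold change 0.72, adjusted p = 0.183, and 0.0156 by DESeq2). Of the fibroblast and preadipocyte markers 7 of 10 were below 0 (2 with library sizes alone, relative median -0.064) with a median of -0.079, and none was called by edgeR. Pdgfra, a receptor of preadipocytes, was lower in every knockdown sample (log2 fold change -0.87, adjusted p = 0.155, and 0.0277 by DESeq2), as was Dlk1 (log2 fold change -0.84, adjusted p = 0.388). The part of the markers in the carriers' spread was not tested, and in bulk RNA fewer adipocytes and less carrier RNA per adipocyte cannot be told apart.

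**Figure D5:**
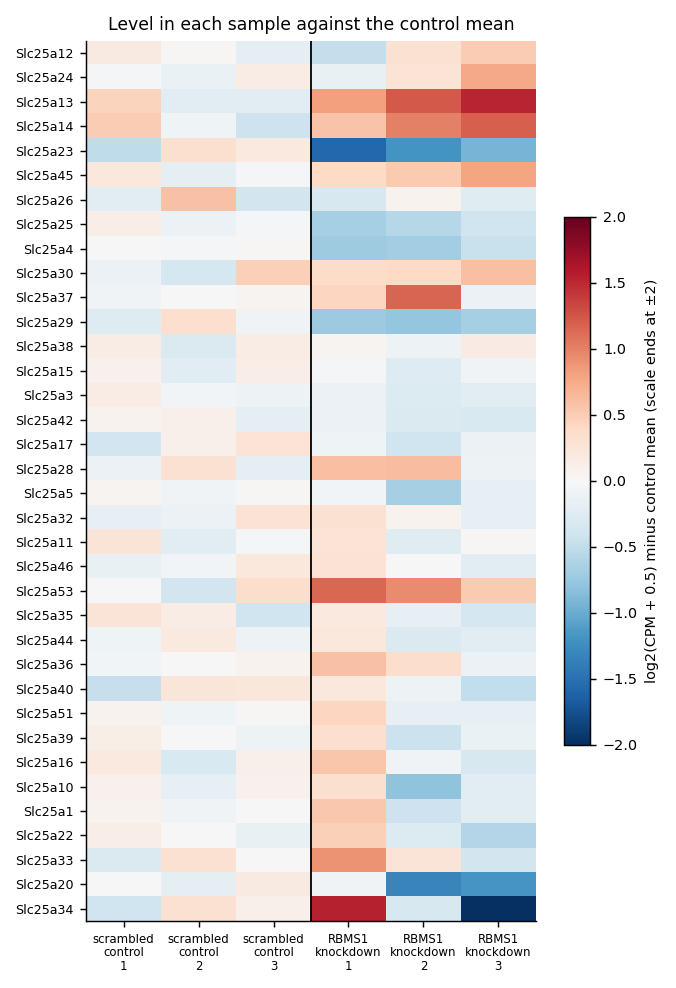
Level of 36 tested Slc25a genes in each sample as log2(CPM + 0.5) minus the mean of the 3 control samples (color, blue lower and red higher, scale ending at 2 in either direction), with samples in columns and genes ordered by how far knockdown replicate 1 lies above replicates 2 and 3. In low rows such as Slc25a10, Slc25a1 and Slc25a22, knockdown replicate 1 is red while replicates 2 and 3 are blue, and Slc25a23, Slc25a25, Slc25a4 and Slc25a29 are blue in every knockdown sample.

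Family members with other symbols were read from the same table. Of Ucp1, Ucp2, Ucp3, Mtch1 and Mtch2, Ucp1, the uncoupling protein of brown and beige fat, had no count in any sample. None of the other 4 passed the threshold (median log2 fold change -0.12). Ucp3 was at 3.37, 6.45 and 4.47 CPM in the controls and at 13.7, 7.25 and 7.19 CPM in the knockdown, higher in every knockdown sample (log2 fold change 1.02, adjusted p = 0.298). Mtch2, an outer membrane insertase of carrier ancestry, was lower in every knockdown sample, at 167, 174 and 187 CPM against 155.8, 117 and 115 CPM (log2 fold change -0.44, adjusted p = 0.302).

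Genes of proteins that act beside the carriers were read in the same way, and edgeR called none of these genes. Among 17 other inner membrane transporters, such as the pyruvate carrier subunits and the calcium uniporter, 12 were below 0 (4 with library sizes alone, relative median -0.29) with a median log2 fold change of -0.27. The 3 outer membrane channels Vdac1, Vdac2 and Vdac3 were all below 0 (median -0.19, and 1 with library sizes alone, relative median -0.19), and of 12 genes of the import path that carries Slc25a proteins to the inner membrane 8 were below 0 (median -0.047, and 1 with library sizes alone, relative median -0.032). Of 16 enzymes that make or use carrier substrates 11 were below 0 (median -0.16, and 2 with library sizes alone, relative median -0.16). The smallest p values in that list were those of Cpt1a, which makes the acylcarnitine that Slc25a20 transports (log2 fold change 1.06, adjusted p = 0.105), and Got1, the cytosolic aminotransferase of the malate-aspartate shuttle (log2 fold change 0.92, adjusted p = 0.133). DESeq2 called both, at adjusted p of 0.0125 and 0.0594 by DESeq2.

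RefSeq promoter windows on GRCm38.p6, from 250 bases before to 50 after each start, were matched for 36 of the 47 carriers (46 windows), and short motifs were searched on both strands. The Sp1 motif GGGCGG was in 82.6% of the carrier windows, in 64.3% of the windows of all tested genes and in 35.7% of all windows. CCAAT was in 47.8%, 38.2% and 37.4% of them. The ERR half-site AAGGTCA was in 2.17%, 3.05% and 4.72%. The longer NRF1 motif, searched as an exact match, was in 0 of the 46 carrier windows, 2.29% of the windows of tested genes and 0.971% of all windows. A match says only that these letters are in the window.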

How the data were processed

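RNA was sequenced from 3 scrambled control and 3 RBMS1 knockdown samples of 3T3-L1 adipocytes. Per the labels and the study's methods, the authors made stranded libraries of ribosomal RNA-depleted total RNA, trimmed reads with Trim Galore 0.6.7, used STAR 2.7.10a to map them to GRCm38 and quantified genes with Salmon 1.9.0. What the authors deposited is the estimated count of each gene, not normalized. Per sample, 3.97% to 7.78% of the values were off a whole number by more than 1e-06, and all were rounded here. The annotation used for counting is not given in the sources used here.

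All 11440 genes that passed filterByExpr were fitted with edgeR 4.0.16 in R 4.3.3 (TMM, estimateDisp, glmQLFit with legacy set to false, glmQLFTest) on the condition alone. The p-values were adjusted over all tested genes (Benjamini-Hochberg), and a gene was called up to an adjusted p of 0.1. SE is the standard error of a log2 fold change. The scripts were tested on simulated data. Positions and lengths were taken from GENCODE M21, and per-kilobase levels are CPM divided by exon length.

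The carriers given in every sample are called members, the 10 of smallest p, the 5 of highest level per length and 10 carriers of adipocyte metabolism. Slc25a12, Slc25a15, Slc25a17, Slc25a22, Slc25a24, Slc25a28, Slc25a33, Slc25a34 and Slc25a36 fall outside this rule and were added after their values were seen. So were the genes of the other lists that edgeR did not call. The members, role groups and lists were chosen with earlier results of these data known. A carrier that is in the counts of members is not reported here by itself and is not drawn. Slc25a52 and, of the lists, genes not in the table were not analysed here. The alternatives were DESeq2 1.42.0, limma-voom (limma 3.58.1), RLE size factors, library sizes alone, no ribosomal RNA genes, other filters, counts left unrounded, a replicate block, removal of chromosome medians or of GC content and length trends (loess span 0.3), each sample left out, and edgeR's earlier quasi-likelihood estimates, this last chosen after seeing the data.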

Additional observations from a re-analysis of the deposited data

How the results depend on the processing

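The number of carriers called by edgeR was 0 in the reported fit, 2 with DESeq2, and 0 to 4 with each sample left out in turn (4 without RBMS1 knockdown replicate 1); it was 0 under the other alternatives. Over all genes the count was 140 in the reported fit, 430 with DESeq2, 268 with no filter on low counts, 73 with chromosome medians removed, and from 12 to 696 with each sample left out, lowest without control replicate 2 and highest without knockdown replicate 1. Of these 140 genes 74.3% were lower in the knockdown, and 33.3% of the genes called with library sizes alone were. The median log2 fold change of the carriers was 0.35 with library sizes alone, where the median of all genes was 0.37, and it ranged from -0.19 to 0.093 with each sample left out. Relative to all genes the carriers' median with library sizes alone was -0.026.

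The replicate numbers did not pair the samples: deviations of same-numbered samples correlated at -0.14, 0.078 and -0.028. With a replicate block 39 genes and 0 carriers were called.

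Of 324 pairs of an alternative and one of the 18 carriers named by the rule, 294 kept direction and side of the threshold, 5 gained a call and 25, in 8 genes, turned direction, none of them called. Carriers named after their values were seen are not in this tally. Of the 25 turns, 6 came from library sizes alone, which moved these 6 carriers up by 0.36 to 0.40 while the median of all genes was 0.37, and 19 from other alternatives. The log2 fold change of Slc25a1 was -0.011 with limma-voom, -0.029 with the replicate block and -0.044 with chromosome medians removed, and -0.30 to 0.22 with each sample left out. With library sizes alone it was 0.16 for Slc25a3, 0.10 for Slc25a5, 0.20 for Slc25a10, 0.33 for Slc25a39, 0.14 for Slc25a42 and 0.32 for Slc25a44. Chromosome medians removed gave 0.035 for Slc25a39, 0.15 for Slc25a42 and 0.067 for Slc25a44, removal of GC content and length trends gave 0.017 for Slc25a39, and limma-voom gave -0.019 for Slc25a11. With each sample left out, Slc25a10 ranged from -0.47 to 0.093, Slc25a11 from -0.11 to 0.17, Slc25a39 from -0.27 to 0.13 and Slc25a44 from -0.24 to 0.030. The cause of the 19 turns outside library sizes alone was not tested. Depth limits the low carriers most, since 3 counts in scrambled control replicate 2 equal 1.49 CPM.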
